A study of Homo sapiens with 6 samples.

Results

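To describe gene expression in CWR22Rv1 cells given the HSP70 inhibitor VER155008 (VER), the library of cells treated with 10 µM VER for 48 h was compared with the library of cells given DMSO vehicle for the same time. These are 2 of the 6 samples of the series, and 14790 of the 60658 listed genes had more than 1 FPKM in at least 1 of them and were compared. FPKM, fragments per kilobase of transcript scaled to the mapped reads, is a level per transcript length. CWR22Rv1 is a human castration-resistant prostate carcinoma line grown here without enzalutamide, a hormone antagonist used in prostate cancer. The other 4 samples are CWR22Rv1 cells with 10 µM apoptozole (APO), and C4-2B MDVR cells with DMSO, APO or VER. The study describes both lines as enzalutamide-resistant, and it kept C4-2B MDVR in medium with 20 µM enzalutamide. Whether the drug was present during the 48 h treatments is not stated. Each condition is 1 library, so no difference given here has a replicate check and none was tested.

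HSP70 proteins are ATP-driven chaperones that bind unfolded stretches of other proteins, help them to fold and hand those that cannot be rescued to ubiquitin ligases such as STUB1. VER occupies the nucleotide pocket of HSP70 and blocks its ATPase cycle. Misfolded protein in the cytosol or the endoplasmic reticulum (ER) is answered by the heat shock response and by the unfolded protein response (UPR).

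Differences are given as log2(FPKM + 0.1) with VER minus DMSO, which understates the change of low genes, and the fold changes quoted are plain ratios of FPKM. A gene was counted as higher or lower when this difference passed 1.5-fold. By that measure 2131 genes were higher (14.4% of those compared) and 1991 were lower (13.5%). Past 2-fold, 895 genes were higher (6.05%) and 674 lower (4.56%). The median difference over all genes compared was -0.03, and the middle 50% of them lay between -0.35 and 0.33. Low genes were called most often: 36.7% of the 6832 genes whose higher value was at most 10 FPKM passed 1.5-fold. The share was 19.7% of the 6940 genes between 10 and 100 FPKM and 24.6% of the 1018 genes above 100 FPKM.

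The libraries held 701377 FPKM in all with DMSO and 733529 with VER, and the 13 protein-coding genes of the mitochondrial chromosome are among their highest. The mitochondrial chromosome took 25.7% of the FPKM in both libraries. Ratios of very low values between the libraries clustered at 1.08, which is read as the relative worth of 1 fragment, but read totals are unknown. All 8 luminal prostate markers examined, among them KLK3, KLK2, FOXA1, HOXB13, KRT8 and KRT18, lay above 1 FPKM in both libraries. Of basal, endothelial and leukocyte markers none reached 1 FPKM in either library, and 2 of 3 fibroblast markers lay above 1 FPKM with a highest value of 3.68 FPKM.

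**Figure D1:**
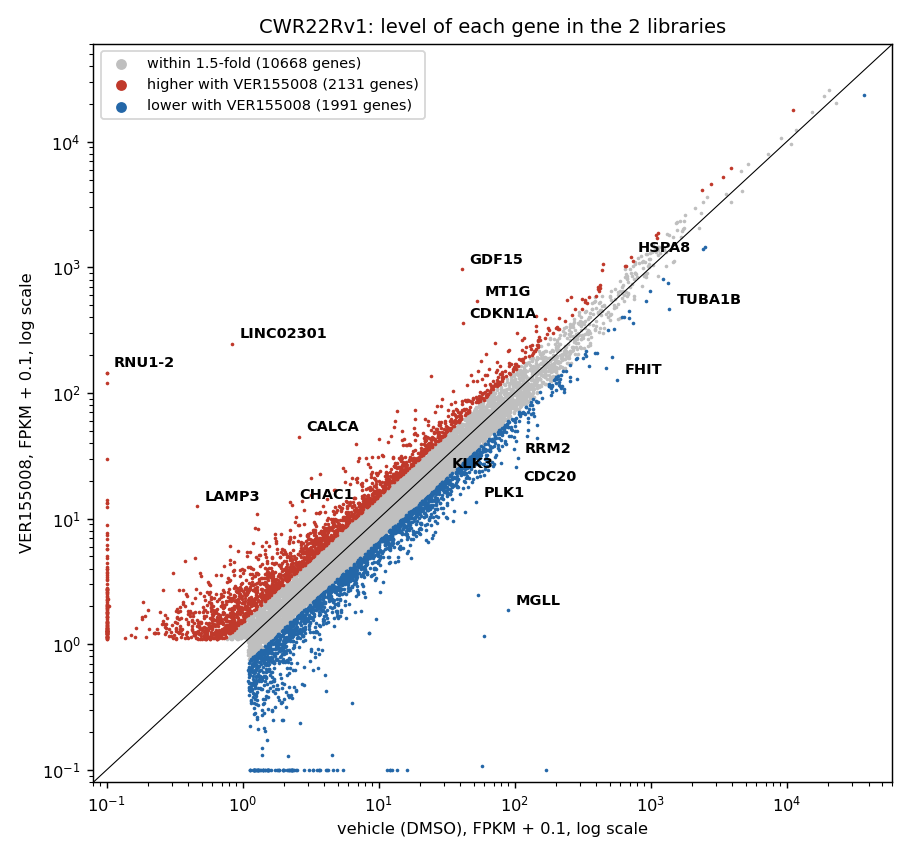
Level of each of the 14790 compared genes in the 2 CWR22Rv1 libraries, as FPKM + 0.1 on log axes, with genes past 1.5-fold in red (2131 higher with VER) and blue (1991 lower). GDF15, MT1G and CDKN1A stand far above the diagonal at high levels, and points on the left and bottom edges are genes listed at or near 0 in 1 library.

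The largest upward differences at high level were those of secreted, metal-binding and growth-restraining genes. GDF15 (chr19:18374731-18389176, GRCh38), a secreted stress cytokine of the TGF-beta family that both p53 and ATF4 induce, stood at 41 FPKM with DMSO and 971 with VER, a 23.7-fold difference. CDKN1A (chr6:36676460-36687339), which codes for the cyclin-dependent kinase inhibitor p21, went from 41.3 to 359 FPKM, or 8.7-fold. MT1G, a metallothionein that binds zinc and copper, went from 52.8 to 539.7 FPKM, or 10.2-fold. Each of these had a moderate level with vehicle and was among the abundant mRNAs with VER. Other genes had lower levels with vehicle. LAMP3, a lysosomal membrane glycoprotein, had 0.362 FPKM with DMSO and 12.4 with VER, a 34.3-fold difference. CALCA, which encodes calcitonin and calcitonin gene-related peptide, had 2.5 FPKM with DMSO and 45 with VER, or 18-fold, and it overlaps the neighbouring CALCB. SLC52A1, a riboflavin transporter, had 1.18 FPKM with DMSO and 10.7 with VER. CGA, the shared alpha subunit of the glycoprotein hormones, had 3.07 FPKM with DMSO and 21 with VER. TSC22D3, the glucocorticoid-induced leucine zipper protein, had 6.71 FPKM with DMSO and 39.1 with VER.

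Among protein-coding genes above 10 FPKM in at least 1 library, 22 were more than 4-fold higher with VER and 4 were more than 4-fold lower. Of the 22, EDA2R, S100P, SMOC1, CYP1A1, AGR2 and CAPN5 belong to no list used here other than that of CYP1A1. EDA2R, a receptor of the TNF receptor family, had 2.65 FPKM with DMSO and 13.6 with VER. S100P, a calcium-binding protein, had 13.6 FPKM with DMSO and 72.2 with VER. AGR2, a protein disulfide isomerase of the secretory pathway, had 6.93 FPKM with DMSO and 28.4 with VER. The others differed by 2.30 (SMOC1), 2.22 (CYP1A1) and 2.04 (CAPN5) on the log2 scale.

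Above 10 FPKM the largest downward differences of protein-coding genes were at the 4 loci MGLL, PLEKHG2, AC120057.2 and FHIT, and without that limit 36 protein-coding genes were more than 4-fold lower. MGLL, monoglyceride lipase, had 89.7 FPKM with DMSO and 1.76 with VER. It overlaps the opposite-strand gene SEC61A1, which had 152 FPKM with DMSO and 280.4 with VER. The strand setting of counting is unknown, so values here and at the other opposite-strand overlaps may hold reads of the other gene. PLEKHG2, a guanine nucleotide exchange factor, had 53.6 FPKM with DMSO and 2.39 with VER, and AC120057.2, a readthrough locus that overlaps GABARAP and CTDNEP1 on the same strand, had 59.1 FPKM with DMSO and 1.06 with VER. FHIT (chr3:59749310-61251459), a diadenosine polyphosphate hydrolase, had 568 FPKM with DMSO and 127 with VER. The differences at these loci rest on 1 DMSO library. With APO, MGLL had 2.33 FPKM, PLEKHG2 2.98 and FHIT 53.9, also under that library, while AC120057.2 had 79.5. Whether the DMSO library stood high at these loci was not tested. After FHIT in order came IGFLR1, CDC20, PLK1, DHRS2, the pseudogene RPS28P7, PIF1, the protein-coding locus AC034102.2 and PSRC1. AC034102.2 overlaps ERBB3 and PA2G4 on the same strand, so reads may have been divided between these entries. CDC20 was lower 3.94-fold, PLK1 3.87-fold, the helicase PIF1 3.6-fold and the spindle protein PSRC1 3.52-fold. DHRS2, a mitochondrial short-chain dehydrogenase, went from 42.8 to 11.3 FPKM, and IGFLR1, an IGF-like receptor, from 10.1 to 2.5 FPKM.

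**Figure D2:**
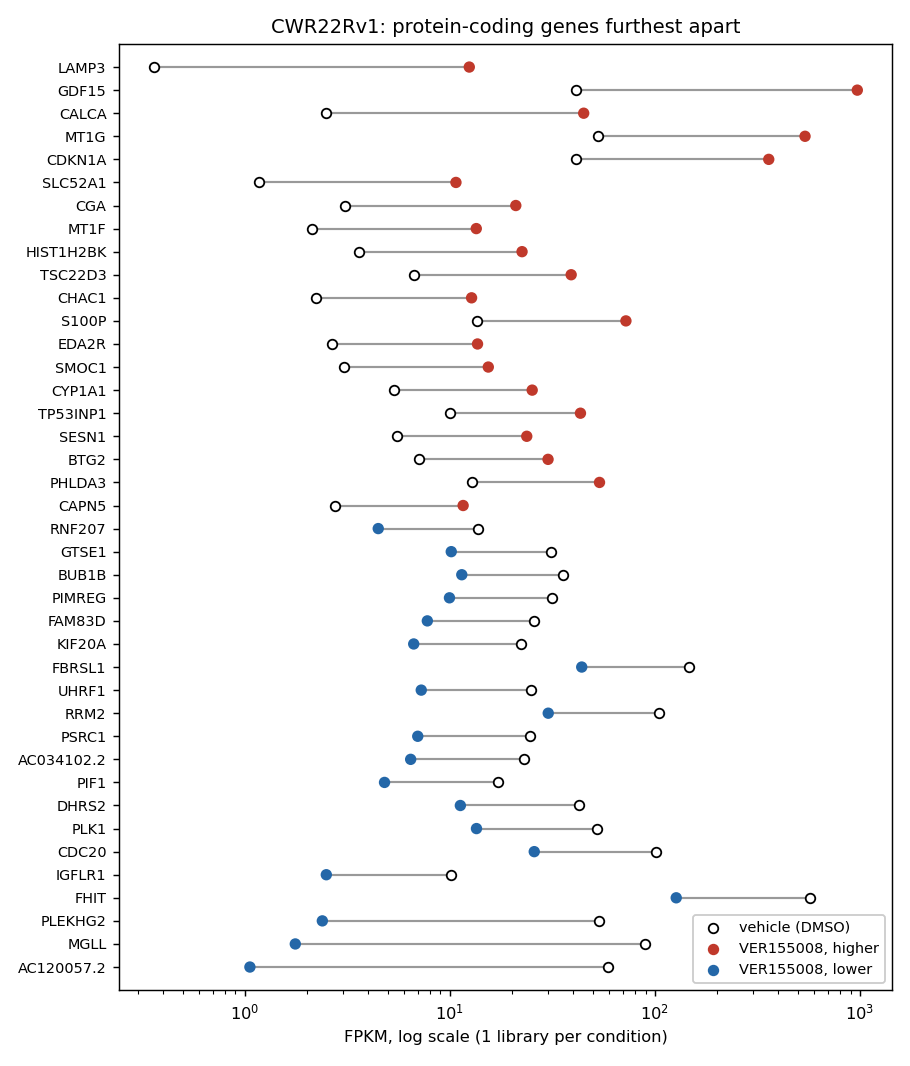
FPKM (log axis) in the DMSO library (open circles) and the VER library (filled, red higher and blue lower) for the 20 protein-coding genes furthest in each direction that passed 10 FPKM in 1 or both libraries and were above 0 in both. The upper part holds p53 targets such as CDKN1A and SESN1 and the metallothioneins MT1G and MT1F, and the lower part holds cell division genes such as CDC20 and PLK1, below which lie IGFLR1 and the 4 single loci AC120057.2, MGLL, PLEKHG2 and FHIT.

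Cell division genes were lower as a block. Of 36 genes of mitosis, all 36 had a lower value with VER and 35 passed 1.5-fold, against 13.5% of all genes compared, with 27 past 2-fold. Their median difference was -1.19, with a range from -1.98 to -0.48. CDC20, the activator of the anaphase-promoting complex, stood at 102 FPKM with DMSO and 25.8 with VER. PLK1, a kinase that drives mitotic entry, stood at 52.2 FPKM with DMSO and 13.5 with VER. KIF20A, a kinesin of the cleavage furrow, stood at 22.3 FPKM with DMSO and 6.67 with VER. These were the largest differences of the list. BUB1B, a spindle checkpoint kinase, had 35.8 FPKM with DMSO and 11.4 with VER. CENPE, a kinetochore motor, had 7.75 FPKM with DMSO and 2.44 with VER. PTTG1, known as securin, had 124 FPKM with DMSO and 45.2 with VER. FOXM1, the transcription factor of the G2/M programme, had 69.3 FPKM with DMSO and 26.4 with VER. UBE2C, the ubiquitin-conjugating enzyme of the anaphase-promoting complex, had 98.2 FPKM with DMSO and 44.8 with VER. The exception to the 1.5-fold count was CDK1, the mitotic cyclin-dependent kinase itself, which had 133 FPKM with DMSO and 95.5 with VER (difference -0.48). The checkpoint and kinetochore genes TTK, NUF2, MAD2L1 and NDC80 differed least of those past 1.5-fold, between -0.72 and -0.65 with -0.73 for NDC80.

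Promoters of mitotic genes often carry the cell cycle genes homology region (CHR), with the letters TTTGAA on either strand. In the 250 bases before the RefSeq start site these letters were present in 16 of the 30 mitosis genes with a promoter sequence (53.3%), in 1 of 32 replication genes (3.13%), in 7.94% of the 10651 compared genes with one and in 13.6% of all 27305 promoters. Among genes past 2-fold they were present in 17.9% of 336 lower and 9.19% of 446 higher promoters. CCAAT, the box bound by NF-Y, was present in 23 of the 30 (76.7%), in 35.6% of compared genes and in 33.0% of all promoters. A match of letters describes the sequence and is not evidence of binding. The stretches around the matches of 3 mitosis genes are shown for their positions, 5′ to 3′ on the gene's strand, with TTTGAA or its complement TTCAAA in capitals. They lie on GRCh38.p14 at chr16:23678830-23678888 (PLK1, plus strand), chr1:43358773-43358951 (CDC20, plus strand) and chr15:40161016-40161068 (BUB1B, plus strand).
PLK1: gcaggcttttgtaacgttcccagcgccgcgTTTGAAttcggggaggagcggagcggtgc
CDC20: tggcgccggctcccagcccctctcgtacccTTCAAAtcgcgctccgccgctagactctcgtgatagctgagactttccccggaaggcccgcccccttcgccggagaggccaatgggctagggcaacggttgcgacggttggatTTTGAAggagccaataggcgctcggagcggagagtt
BUB1B: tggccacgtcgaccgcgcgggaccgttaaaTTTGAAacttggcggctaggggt
PLK1 and BUB1B held 1 match, and CDC20 held 2, 1 on each strand.

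DNA replication genes followed. All 39 were lower and 27 passed 1.5-fold (69.2%, against 13.5% of all genes), with a median of -0.75. RRM2, the regulated subunit of ribonucleotide reductase that supplies deoxynucleotides, was lowest with 105 FPKM with DMSO and 30.2 with VER. MCM10, a factor of helicase activation, had 17.8 FPKM with DMSO and 6.73 with VER. MCM5 and MCM2, subunits of the replicative helicase, went from 63 to 26.1 FPKM and from 72.6 to 31.7 FPKM respectively. The polymerase and licensing genes ORC1, GINS4, POLA1 and POLD1 also lay past 2-fold. PCNA, the sliding clamp, was among the smaller differences at -0.58, below the 1.5-fold mark, as were TYMS (-0.53), LIG1 (-0.35) and the RPA subunits. DNA repair genes had 14 of 24 lower (58.3%, against 13.5% of all genes) and a median of -0.69. EXO1, a mismatch repair exonuclease, had 19.8 FPKM with DMSO and 8.2 with VER, BRCA1 had 22.1 FPKM with DMSO and 12.3 with VER, and MSH6 had 23.3 FPKM with DMSO and 12 with VER. BRCA2 was the 1 repair gene counted as higher, at 2.98 FPKM with DMSO and 4.71 with VER.

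Of the genes of the G1 phase, 12 of 23 lay within 1.5-fold. Of those 23, 9 were lower and 2 higher (39.1% and 8.70%, beside 13.5% and 14.4% of all genes), with a median of -0.43. E2F8 had 7.9 FPKM with DMSO and 2.3 with VER and E2F2 had 23.2 FPKM with DMSO and 9.92 with VER, both transcription factors of the E2F family. CCNE2, a cyclin E that starts S phase, had 25.6 FPKM with DMSO and 11.3 with VER, and its kinase CDK2 had 100.3 FPKM with DMSO and 58.5 with VER. The 2 higher genes were CDKN1A and RBL2, the latter a retinoblastoma-like pocket protein at 32.1 FPKM with DMSO and 52.4 with VER. CCND1, cyclin D1, was the most abundant of the group and differed little, with 598 FPKM with DMSO and 647 with VER. CDKN1B, coding for p27, stood at 55.1 FPKM with DMSO and 82.3 with VER, just inside 1.5-fold at 0.58.

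The p53 targets differed the other way. All 26 compared were higher and 21 passed 1.5-fold, against 14.4% of all genes, with 19 past 2-fold and a median of 1.38. Besides GDF15 and CDKN1A, TP53INP1, an autophagy and death factor, had 9.97 FPKM with DMSO and 43.3 with VER. SESN1, a sestrin that restrains mTORC1, had 5.53 FPKM with DMSO and 23.7 with VER. BTG2, an anti-proliferative factor of mRNA deadenylation, had 7.11 FPKM with DMSO and 30.1 with VER. PHLDA3, a repressor of AKT, had 12.8 FPKM with DMSO and 53.7 with VER, and FDXR, ferredoxin reductase of mitochondria, had 11.6 FPKM with DMSO and 40.9 with VER. The lowest fold of these was that of FDXR, at 3.53. MDM2, the ligase that degrades p53, was higher at 54 FPKM with DMSO and 149 with VER. BBC3, the pro-death BH3-only protein PUMA, had 18.2 FPKM with DMSO and 52.9 with VER, and BAX, the pore-forming death effector, had 65.2 FPKM with DMSO and 154 with VER. Death receptors were higher as well: FAS, the receptor of FAS ligand, went from 4.57 to 16.8 FPKM, and TNFRSF10B, the TRAIL receptor DR5, from 44.7 to 115 FPKM. FAS overlaps ACTA2 on the opposite strand, and ACTA2 had 2.3 FPKM with DMSO and 7.03 with VER. POLH (0.21), TIGAR (0.34), PLK3 (0.36), AEN (0.46) and XPC (0.56) remained within 1.5-fold.

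Among 24 genes of the BCL2 family and the death receptors the median was 0.17. Of the 24, 8 were higher (33.3%, against 14.4% of all genes) and 1 lower. The higher ones were in part the p53 targets already given. CASP8, the initiator caspase of death receptors, had 1.76 FPKM with DMSO and 4.21 with VER. The anti-death genes did not share a direction past 1.5-fold: BCL2 itself was the lower gene at 3.12 FPKM with DMSO and 1.84 with VER, MCL1 had 91.5 FPKM with DMSO and 93.9 with VER, BCL2L1 had 24.1 FPKM with DMSO and 22.8 with VER and XIAP had 13.5 FPKM with DMSO and 15 with VER.

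The branch of the stress response that runs through ATF4, the transcription factor made when eIF2-alpha is phosphorylated, was higher. ATF4 had 263 FPKM with DMSO and 422 with VER. Of 32 of its targets, 31 had a higher value and 21 passed 1.5-fold (65.6%, against 14.4% of all genes). Their median was 0.79 and none was lower past 1.5-fold. CHAC1, which degrades glutathione, had 2.22 FPKM with DMSO and 12.8 with VER (5.75-fold). SESN2 had 6.25 FPKM with DMSO and 21.1 with VER, and SLC7A11, the cystine importer, had 10.4 FPKM with DMSO and 32 with VER. ASNS, asparagine synthetase, had 105 FPKM with DMSO and 298 with VER and was among the most abundant of the group. NUPR1, a stress-induced chromatin protein, had 25.8 FPKM with DMSO and 70.9 with VER, and DDIT3, the death-linked factor CHOP, had 49.3 FPKM with DMSO and 125 with VER. DDIT3 overlaps the opposite-strand gene MARS, which had 102 FPKM with DMSO and 154 with VER. SLC3A2, the heavy chain of several amino acid exchangers, went from 261 to 582 FPKM. PHGDH and PSAT1, enzymes of serine synthesis, went from 80.7 to 142 FPKM and from 91 to 164 FPKM. CTH, cystathionine gamma-lyase, was the 1 target with a lower value, at -0.11. The cytosolic tRNA synthetases, several of which ATF4 controls, had 3 of 20 higher (SARS, CARS and MARS) and 2 lower (VARS and FARSA), shares of 15% and 10% that are near the 14.4% and 13.5% of all genes. SARS had 73.8 FPKM with DMSO and 152 with VER, and VARS had 74.8 FPKM with DMSO and 36.7 with VER.

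The composite element bound by ATF4 with C/EBP factors was searched as TGATGNAAN on both strands. It was present in 3 of 24 ATF4 target promoters (12.5%), in 1.21% of compared genes and in 3.18% of all promoters. It was present in 13 of 446 promoters of genes past 2-fold higher (2.91%) and in none of 336 past 2-fold lower. Those of ASNS and CHAC1 are shown with the match in capitals, on GRCh38.p14 at chr7:97872438-97872506 (ASNS, minus strand) and chr15:40953231-40953299 (CHAC1, plus strand).
ASNS: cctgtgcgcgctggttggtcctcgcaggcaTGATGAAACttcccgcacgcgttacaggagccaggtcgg
CHAC1: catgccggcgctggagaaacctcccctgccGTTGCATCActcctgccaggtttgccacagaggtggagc
The CHAC1 match reads on the opposite strand of the gene.

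Of 12 sensors and factors of the UPR, all 12 had a higher value, with a median of 0.87. Of the 12, 10 passed 1.5-fold (83.3%, against 14.4% of all genes). XBP1, whose spliced form drives ER expansion, had 114 FPKM with DMSO and 262 with VER. ATF6, the membrane-bound sensor cleaved in the Golgi, had 8.48 FPKM with DMSO and 16.7 with VER. ERN1, the splicing sensor IRE1, had 4.07 FPKM with DMSO and 8.1 with VER, and EIF2AK3, the eIF2-alpha kinase PERK, had 6.69 FPKM with DMSO and 10.2 with VER. PPP1R15A, which reverses eIF2-alpha phosphorylation, had 10.1 FPKM with DMSO and 19.1 with VER. The 3 sensors of the UPR were all past 1.5-fold. Among 26 ER chaperones and degradation factors the median was 0.31. Of the 26, 8 were higher (30.8%, against 14.4% of all genes) and none was lower past 1.5-fold. The higher ones were led by DNAJB9, a co-chaperone that represses IRE1, with 12.3 FPKM with DMSO and 45.4 with VER, and ERO1B, an ER oxidase, with 3.31 FPKM with DMSO and 8.07 with VER. The others were the degradation factors SEL1L (1.01), HERPUD1 (0.92), OS9 (0.83) and DERL3 (0.74) and the folding factors CANX (0.76) and P4HB (0.68). HSPA5, the HSP70 of the ER known as BiP, differed by 0.18 only, with 437 FPKM with DMSO and 495 with VER. HSP90B1 (0.17), PDIA4 (-0.14) and MANF (-0.21) were also within 1.5-fold.

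The ER stress element, CCAAT then 9 of any base then CCACG, was found in 6 of 23 promoters of the ER list (26.1%), in 0.131% of compared genes and in 0.0806% of all promoters. HSPA5, the gene for BiP, carries 1 exact match on GRCh38.p14 at chr9:125241361-125241439 (minus strand), in capitals below, and is shown because its level differed so little. The first 5 letters of the match also count as CCAAT, which was present in 20 of the 23 (87.0%).
HSPA5: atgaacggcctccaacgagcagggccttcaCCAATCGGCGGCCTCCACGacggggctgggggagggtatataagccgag

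In the HSP70 family itself, 13 of 16 genes were compared, with a median of 0.18. Of the 13, 3 were higher (23.1%, against 14.4% of all genes) and none was lower past 1.5-fold. HSPA8, the constitutive cytosolic HSC70 and the most abundant member, stood at 713 FPKM with DMSO and 1210.0 with VER, or 1.7-fold. The stress-inducible HSPA1A had 5.79 FPKM with DMSO and 12.1 with VER, and HSPA1B had 39.2 FPKM with DMSO and 56.6 with VER. HSPA1A and HSPA1B are nearly identical in sequence, so reads may have been divided between them, and their sum went from 45.0 to 68.7 FPKM, a difference of 0.61. The largest difference in the family was that of HSPA13, a microsomal member, with 29.1 FPKM with DMSO and 90.1 with VER, or 3.1-fold. The mitochondrial HSPA9 differed by -0.01 (151 FPKM with DMSO and 151 with VER), and HSPA4 (-0.22) and HSPH1 (-0.15), which act as nucleotide exchange factors, had slightly lower values. STUB1, the ligase that works with HSP70, had 141 FPKM with DMSO and differed by -0.20.

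The wider heat shock response, the set that HSF1 drives when cytosolic proteins unfold, had a median of -0.07 over 21 genes. Of the 21, 3 were higher (14.3%, near the 14.4% of all genes) and none was lower past 1.5-fold. The 3 were HSPA8, HSPA1A and SERPINH1, a collagen chaperone at 22.4 FPKM with DMSO and 38.3 with VER. The co-chaperones DNAJB1 (31.9 FPKM with DMSO and 33.8 with VER) and BAG3 (14 FPKM with DMSO and 12.8 with VER) and the small chaperone HSPB1 (-0.20) were within 1.5-fold. The heat shock element, with the 3 alternating GAA and TTC units of the HSF1 site on either strand, was present in 4 of 20 promoters of the list (20%), in 0.253% of compared genes and in 0.439% of all. The HSP90 genes differed in sign, at 0.12 for the inducible HSP90AA1 and -0.10 for HSP90AB1. All 8 subunits of the TRiC chaperonin, which folds actin and tubulin, had lower values with a median of -0.37, though CCT2 alone passed 1.5-fold (199.6 to 130.2 FPKM). None of 37 proteasome genes passed 1.5-fold in either direction (median -0.10).

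**Figure D3:**
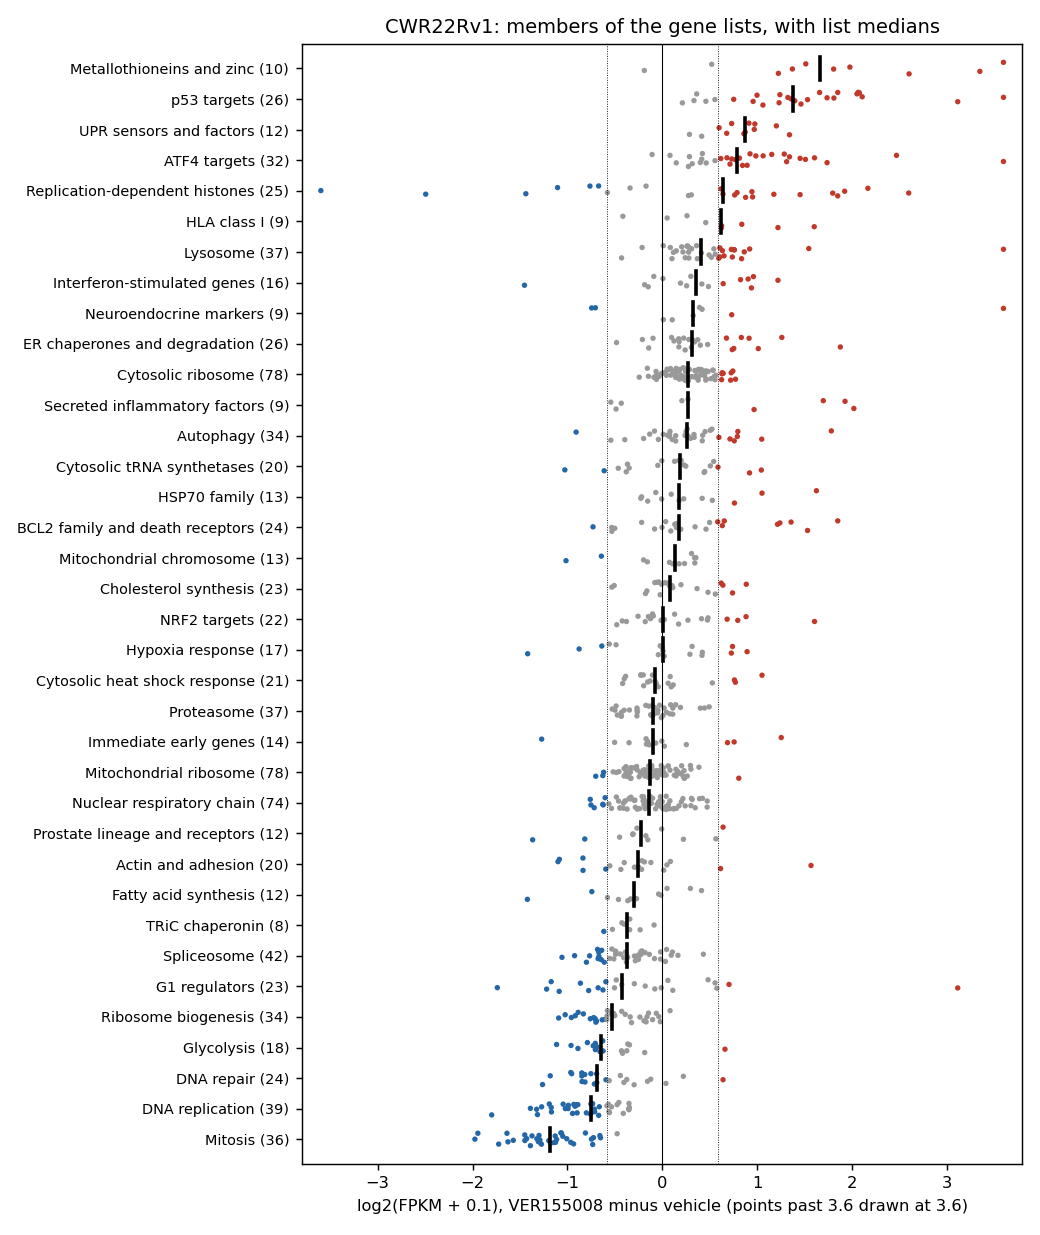
Difference in log2(FPKM + 0.1), VER minus DMSO, for each member of 36 gene lists in CWR22Rv1, with the number compared in brackets, list medians as black bars, 0 as a solid line and 1.5-fold as dotted lines. Metallothioneins, p53 targets, UPR factors and ATF4 targets have the highest medians (0.79 to 1.66) and mitosis the lowest (-1.19), and 6 points past 3.6 are drawn at the edge.

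Metallothioneins, which buffer zinc and copper and are switched on by the zinc sensor MTF1, were higher together. Of 10 genes of zinc handling compared out of 12, 8 passed 2-fold (against 6.05% of all genes). None was lower past 1.5-fold, and the median was 1.66. MT1H and MT1M (0.511 to 1.48 FPKM) are among the 8 and passed the filter only with VER, so they had to differ. MT2A, the most abundant with vehicle, had 144 FPKM with DMSO and 411 with VER. MT1X had 71.4 FPKM with DMSO and 250.2 with VER, MT1E had 18.6 FPKM with DMSO and 73.5 with VER and MT1F had 2.13 FPKM with DMSO and 13.5 with VER. MT1H was listed at 0 with DMSO and at 13.3 FPKM with VER, while the pseudogene MT1IP was listed at 13.6 FPKM with DMSO and at 0 with VER. The genes of this cluster on chromosome 16 resemble each other closely, so single values may share reads. SLC30A1, a zinc exporter with the same sensor, had 9.78 FPKM with DMSO and 23 with VER, and MTF1 itself had 3.48 FPKM with DMSO and 3.04 with VER.

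The metal response element was searched by its core, as TGCACNC or TGCGCNC on both strands. A short core of this kind is common, being present in 33.8% of compared genes and in 24.7% of all promoters, and 2 or more copies were present in each of the 3 metallothionein promoters found. MT1X and MT2A are shown with matches in capitals, on GRCh38.p14 at chr16:56682290-56682453 and chr16:56608334-56608583, both plus strand.
MT1X: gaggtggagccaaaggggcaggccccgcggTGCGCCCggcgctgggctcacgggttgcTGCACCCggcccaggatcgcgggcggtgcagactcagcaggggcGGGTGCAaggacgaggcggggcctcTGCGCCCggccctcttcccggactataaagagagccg
MT2A: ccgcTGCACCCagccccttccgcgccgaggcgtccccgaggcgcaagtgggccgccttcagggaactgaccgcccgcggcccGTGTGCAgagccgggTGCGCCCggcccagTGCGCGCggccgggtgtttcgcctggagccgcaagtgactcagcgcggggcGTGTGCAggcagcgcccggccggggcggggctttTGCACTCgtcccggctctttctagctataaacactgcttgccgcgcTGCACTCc
MT1X held 4 matches in this stretch and MT2A held 7.

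Lysosomal genes were higher in number more than in size. Of 37, 35 had a higher value, and the median was 0.41. In all 14 passed 1.5-fold (37.8%, against 14.4% of all genes) and none was lower past it. LAMP3 and CTSK of the 14 passed the filter only with VER. NEU1, a sialidase, had 35.3 FPKM with DMSO and 103 with VER. CTSD, the aspartic protease cathepsin D, had 118 FPKM with DMSO and 212 with VER, and PSAP, the precursor of the saposins, had 330.0 FPKM with DMSO and 551 with VER. ATP6V1H, a subunit of the proton pump, had 20.4 FPKM with DMSO and 38.8 with VER. GLA, alpha-galactosidase, had the lowest difference at -0.43. Autophagy genes had 7 of 34 higher (20.6%, against 14.4% of all genes) and 1 lower, with a median of 0.26. GABARAPL1, an ATG8-type protein that coats autophagosomes, had 2.5 FPKM with DMSO and 8.86 with VER, and MAP1LC3B, another, had 21.8 FPKM with DMSO and 45.2 with VER. WIPI1 (0.80) and ATG2B (0.79), which act in membrane supply, came next. GABARAP had 132 FPKM with DMSO and 223 with VER, but the readthrough locus AC120057.2 on the same strand overlaps it and went from 59.1 to 1.06 FPKM, so reads may have been divided between these entries. The lower one was ATG9B (7.94 to 4.19 FPKM).

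Genes of the cytosolic ribosome and of ribosome assembly lay on opposite sides of 0. Of 78 ribosomal protein genes, 69 had a higher value and 8 passed 1.5-fold, a share of 10.3% that is under the 14.4% of all genes, and the median was 0.27. Their level makes the gains large in absolute terms, and 8 of the 10 largest gains in FPKM outside the mitochondrial chromosome were ribosomal protein genes. RPS27 went from 3924 to 6130.5 FPKM and RPS18 from 2764 to 4635 FPKM, and the elongation factor EEF1A1 went from 2609 to 3622 FPKM. Ribosome assembly genes were lower, with 33 of 34 below vehicle, 13 past 1.5-fold (38.2%, against 13.5% of all genes) and a median of -0.53. NOP56, a core protein of box C/D small nucleolar particles, had 231 FPKM with DMSO and 108 with VER. NCL, the nucleolar protein nucleolin, had 186 FPKM with DMSO and 95.8 with VER, and NOP2, an rRNA methyltransferase, had 60.4 FPKM with DMSO and 29.7 with VER. MYC, a driver of this programme, had 118 FPKM with DMSO and 83 with VER (-0.50, within 1.5-fold). Spliceosome genes had 11 of 42 lower (26.2%, against 13.5% of all genes) and none higher, with a median of -0.37. SF3B3, a U2 particle protein, had 104 FPKM with DMSO and 49.7 with VER and HNRNPU, a nuclear RNA-binding protein, had 217 FPKM with DMSO and 114 with VER.

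Glycolysis was lower at most steps. Of 18 genes, 17 had a lower value and 11 passed 1.5-fold (61.1%, against 13.5% of all genes), with a median of -0.64. GAPDH, often used as a reference gene, had 2523 FPKM with DMSO and 1460.3 with VER. LDHA, which turns pyruvate into lactate, had 405 FPKM with DMSO and 208 with VER, PFKP, a phosphofructokinase, had 10.6 FPKM with DMSO and 4.86 with VER and ENO1, an enolase, had 534 FPKM with DMSO and 323 with VER. The glucose transporter SLC2A3 was the 1 higher gene, at a low level (1.03 to 1.7 FPKM). Hypoxia-response genes had 3 higher and 3 lower of 17 (17.6% each, beside 14.4% and 13.5% of all genes) and a median of 0.01. EGLN3 (1.91 to 0.995 FPKM) of the lower ones passed the filter only with DMSO. PFKFB3, which sets the level of the main activator of phosphofructokinase, was the lowest with 20 FPKM with DMSO and 7.4 with VER.

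Respiratory genes differed little. Of the 13 mitochondrially encoded genes, 2 were lower (15.4%, near the 13.5% of all genes), MT-ND6 and MT-ATP8, and the median was 0.14. Of 74 nuclear genes of the respiratory chain 6 were lower (8.11%, under the 13.5% of all genes) and none was higher (median -0.14). ATP5F1B, the catalytic subunit of ATP synthase, had 1235 FPKM with DMSO and 814 with VER. Mitochondrial ribosomal genes had a median of -0.13 over 78.

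In lipid synthesis, SREBF1, which codes for the factor that drives fatty acid genes, had 59.4 FPKM with DMSO and 22.1 with VER. FASN, fatty acid synthase, had 109.9 FPKM with DMSO and 65.7 with VER and was the other lower gene of 12 (16.7%, against 13.5% of all genes, median -0.30). Cholesterol genes were compared too, with 4 of 23 higher (17.4%, against 14.4% of all genes), none lower past 1.5-fold and a median of 0.08. HSD17B7 (13.8 to 25.6 FPKM) and MSMO1 (68.2 to 114 FPKM) were 2 of the 4.

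KLK2, a prostate kallikrein, had 83.4 FPKM with DMSO and 52 with VER, past 1.5-fold lower. KLK3, which encodes prostate-specific antigen, had 30.2 FPKM with DMSO and 22.7 with VER, within 1.5-fold. FKBP5, an HSP90 co-chaperone, had 111 FPKM with DMSO and 82.9 with VER. TMPRSS2, a membrane protease, had 15.3 FPKM with DMSO and 19.8 with VER, a difference of the opposite sign. Of 12 genes of prostate lineage and steroid receptors, ETV1 (6.85 to 2.6 FPKM) and GATA2 (66.2 to 37.5 FPKM) were lower and NR3C1, the glucocorticoid receptor, was higher (3.53 to 5.57 FPKM), shares of 16.7% and 8.33% beside the 13.5% and 14.4% of all genes. AKT1 had 99.4 FPKM with DMSO and 69.9 with VER. Neuroendocrine genes had a median of 0.33 over the 9 of 15 that passed the filter, with CALCA far above the rest and ENO2 (79.3 to 48.6 FPKM) and DDC (14.1 to 8.4 FPKM) lower.

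Immune genes included higher members. Of 12 genes of HLA class I presentation, 9 were compared and 5 were higher (55.6%, against 14.4% of all genes) with a median of 0.63. ERAP1, which trims peptides in the ER, had 3.54 FPKM with DMSO and 11 with VER, TAP1, the peptide transporter, had 16.8 FPKM with DMSO and 39.2 with VER, and B2M, the light chain of HLA class I, had 338 FPKM with DMSO and 522 with VER. Interferon-stimulated genes had 11 of 27 members under the filter, and the other 16 had a median of 0.36. Of the 16, 6 were higher (37.5%, against 14.4% of all genes) and 1 lower (OAS3, 6.99 to 2.49 FPKM). Among secreted inflammatory factors, 9 of 27 passed the filter and 4 of the 9 were higher (44.4%, against 14.4% of all genes). The 4 (LIF, AREG, INHBA and CSF1) were at or below 5 FPKM in both libraries. LIF (0.67 to 3.03 FPKM) and INHBA (0.757 to 2.68 FPKM) of these, and IFI6 (0.766 to 1.56 FPKM) and no other higher interferon-stimulated gene, passed the filter only with VER. NRF2 targets had a median of 0.01 over 22, with 4 higher (18.2%, against 14.4% of all genes) and SLC7A11 leading. HMOX1, heme oxygenase, had 3.89 FPKM with DMSO and 5.45 with VER. Immediate early genes had 3 of 14 higher and 1 lower, 21.4% and 7.14% beside the 14.4% and 13.5% of all genes. The lower one was EGR1, at 10.2 FPKM with DMSO and 4.15 with VER.

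Actin and adhesion genes had 5 of 20 lower and 2 higher (25% and 10%, beside 13.5% and 14.4% of all genes, median -0.26). TPM2 (1.36 to 0.869 FPKM) of the lower ones passed the filter only with DMSO. ACTB, beta-actin, went from 1348 to 756 FPKM, and TAGLN2, an actin-bundling protein, from 350.1 to 163 FPKM.

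Replication-dependent histone genes, whose main mRNAs end without a poly(A) tail, did not share the direction of the other S-phase genes. Of 70 protein-coding entries, 25 passed the filter, with a median of 0.64. Of the 25, 14 were higher and 6 lower (56% and 24%, beside 14.4% and 13.5% of all genes). Most were low, and entries that passed only through 1 library had to differ. HIST1H2BK had 3.63 FPKM with DMSO and 22.5 with VER, HIST1H2AC had 2.47 FPKM with DMSO and 8.83 with VER and HIST3H2A, the most abundant, had 26.7 FPKM with DMSO and 51.7 with VER. HIST1H4C, another of the more abundant entries, had 17.6 FPKM with DMSO and 15.7 with VER. HIST1H1C, a linker histone, was 1 of the lower ones with 9.93 FPKM with DMSO and 6.2 with VER. HIST1H2BC was listed at 1.87 FPKM with DMSO and at 0 with VER. The pseudogene HIST1H1PS1 was listed at 0 with DMSO and at 13.2 FPKM with VER. The labels describe poly(A) selection, which reaches such transcripts only in part.

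A further 5 lists were written after the values had been seen and describe what stood out, so their counts support nothing. Tubulins were lower in 10 of 16 (62.5%, beside 13.5% of all genes) with a median of -0.79. TUBA1B, the main alpha-tubulin, went from 1375 to 466 FPKM and TUBB4B, a beta-tubulin, from 516 to 193 FPKM. TUBE1, epsilon-tubulin of centrioles, was the 1 higher member (21.3 to 43.6 FPKM). FOXO targets and quiescence genes had 13 of 18 higher (72.2%, beside 14.4% of all genes) and a median of 1.10. PDK4, a brake on pyruvate oxidation, had 6.72 FPKM with DMSO and 20.7 with VER. YPEL3, a growth-restraining gene, had 6.05 FPKM with DMSO and 18.7 with VER. ZBTB16, a zinc finger repressor, was the 1 lower (17.7 to 9.93 FPKM). The host genes of small nucleolar RNAs split, with GAS5 (446 to 1059 FPKM), ZFAS1 (60.2 to 139.9 FPKM) and EPB41L4A-AS1 (14.8 to 42 FPKM) higher and SNHG26 (7.62 to 2.53 FPKM) and SNHG4 lower (median -0.04). Translation factors had 1 of 17 past 1.5-fold (5.88% higher, under the 14.4% of all genes) and a median of 0.23. The 1 was TPT1, at 652 FPKM with DMSO and 1027 with VER. Of 6 aryl hydrocarbon receptor targets 4 were higher (66.7%, beside 14.4% of all genes). Among them were CYP1A1, a detoxifying oxidase, at 5.33 FPKM with DMSO and 25.2 with VER, and UGT1A6 (0.0613 to 1.04 FPKM), which passed the filter only with VER. When protein-coding genes were grouped by the letters that start their symbols, TUBB and MCM had the lowest medians of 202 groups of at least 8 genes (-0.88 and -0.81) and HIST the highest (0.63), followed by CYP (0.48) and the Golgi groups GOLGA (0.47) and TMED (0.46).

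The extremes of the whole list were mostly not protein-coding genes. Of the 20 largest upward differences 19 were not protein-coding or had no symbol, and 19 were listed at 0 with DMSO. Of the 20 largest downward differences 18 were of this kind and 15 were listed at 0 with VER. The U1 small nuclear RNA copies RNU1-2 and RNU1-4 were both listed at 0 with DMSO and at the same 145 FPKM with VER. They are copies of 1 sequence, and no fold is given. LINC02301, a long non-coding RNA, was listed at 0.742 FPKM with DMSO and 246 FPKM with VER. RMRP, the RNA of the RNase MRP particle, has 2 overlapping entries that went in opposite directions, 57.9 to 0.00736 FPKM and 24.3 to 135 FPKM, and their sum went from 82.1 to 135 FPKM. SNORA73B was listed at 16.2 FPKM with DMSO and at 0 with VER. The short entries RF02188 and RF02187, both within ST7, changed places: RF02188 was listed at 0 with DMSO and 119.8 FPKM with VER, and RF02187 at 11.5 FPKM and 0. Short RNAs without poly(A) tails are recovered only in part by the poly(A) selection that the labels describe. Of all genes compared, 113 were listed at 0 with DMSO alone and 71 with VER alone.

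VER was also given to C4-2B MDVR cells, with a DMSO library of their own. There 13965 genes were compared, of which 20.5% were higher and 19.0% lower past 1.5-fold. Among 6927 genes with a symbol and above 10 FPKM in at least 1 library of each line, the differences in the lines had a Pearson correlation of 0.63 across genes, which share gene length and base composition and are not independent replicates. The differences were wider in C4-2B MDVR, with an SD over these genes of 0.81 against 0.54. Of these 6927 genes, 629 were higher and 717 lower in CWR22Rv1, and 964 were higher and 1198 lower in C4-2B MDVR. Of the 629 genes higher in CWR22Rv1, 398 were also higher in C4-2B MDVR, which is 63.3% of the former and 41.3% of the 964 higher in the latter. Of 717 lower ones, 512 were lower in both, which is 71.4% of the CWR22Rv1 genes and 42.7% of the 1198 in C4-2B MDVR. A further 19 genes were past 1.5-fold in opposite directions, 13 of them higher in CWR22Rv1 and 6 lower. The lines differ in origin and in the enzalutamide of the maintenance medium, which cannot be told apart here, and no difference between them was tested.

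**Figure D4:**
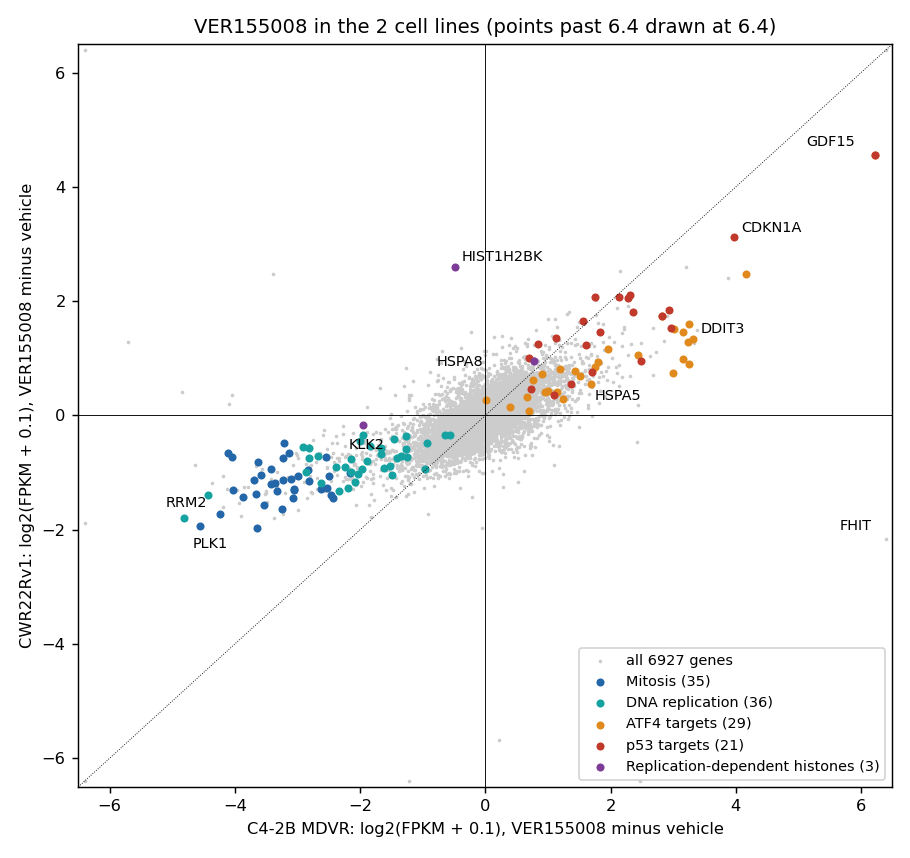
Difference in log2(FPKM + 0.1), VER minus vehicle, in C4-2B MDVR (x axis) and CWR22Rv1 (y axis) for 6927 genes above 10 FPKM in at least 1 library of each line, with members of 5 lists in colour and the dotted line at equal differences. Mitosis and replication genes lie lower in both lines but nearer 0 in CWR22Rv1, HSPA8 and HIST1H2BK lie higher in CWR22Rv1 only, and 10 coordinates past 6.4 are drawn at 6.4.

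Cell cycle and ATF4 lists had smaller medians in size in CWR22Rv1 than in C4-2B MDVR. Over the same members, the mitosis median was -1.19 in CWR22Rv1 and -3.23 in C4-2B MDVR, and that of replication was -0.75 and -1.96. PLK1 went from 92.6 to 3.84 FPKM in C4-2B MDVR, a difference of -4.55 against -1.94. Among protein-coding genes above 10 FPKM in both lines, the largest gaps in this direction were those of CLSPN (-0.87 against -4.64), TTK (-0.65 against -4.11) and NDC80 (-0.73 against -4.05), genes of the replication and spindle checkpoints. ATF4 targets had medians of 0.79 and 1.72. DDIT4, an inhibitor of mTORC1, went from 49.4 to 92 FPKM in CWR22Rv1 and from 79.5 to 754 FPKM in C4-2B MDVR. ATF3, a stress transcription factor, went from 16 to 26.7 FPKM in CWR22Rv1 and from 7.19 to 58.1 FPKM in C4-2B MDVR, and ALDH1L2, a mitochondrial folate enzyme, differed by 0.99 and 3.16. The p53 lists lay closer, at 1.38 and 1.79.

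Some HSP70 genes differed between the lines, though the family medians were 0.18 in CWR22Rv1 and 0.27 in C4-2B MDVR over the 11 members compared in both. HSPA13 was alike in the lines, at 1.63 and 1.49. HSPA8 was higher with VER in CWR22Rv1 and lower in C4-2B MDVR, where it went from 1332 to 719 FPKM. The sum of HSPA1A and HSPA1B differed by 0.61 in CWR22Rv1 and by -0.91 in C4-2B MDVR. HSPA5 differed by 0.18 in CWR22Rv1 and by 1.63 in C4-2B MDVR, where it went from 278 to 863 FPKM. The heat shock list as a whole had medians of -0.10 and -0.68 over 19 genes compared in both. KLK2 differed by -0.68 and -2.30, and FKBP5 by -0.42 and -2.75. Lysosome (0.41 and 0.46), glycolysis (-0.64 and -0.71) and HLA class I (0.63 and 0.69) had like medians in the lines.

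**Figure D5:**
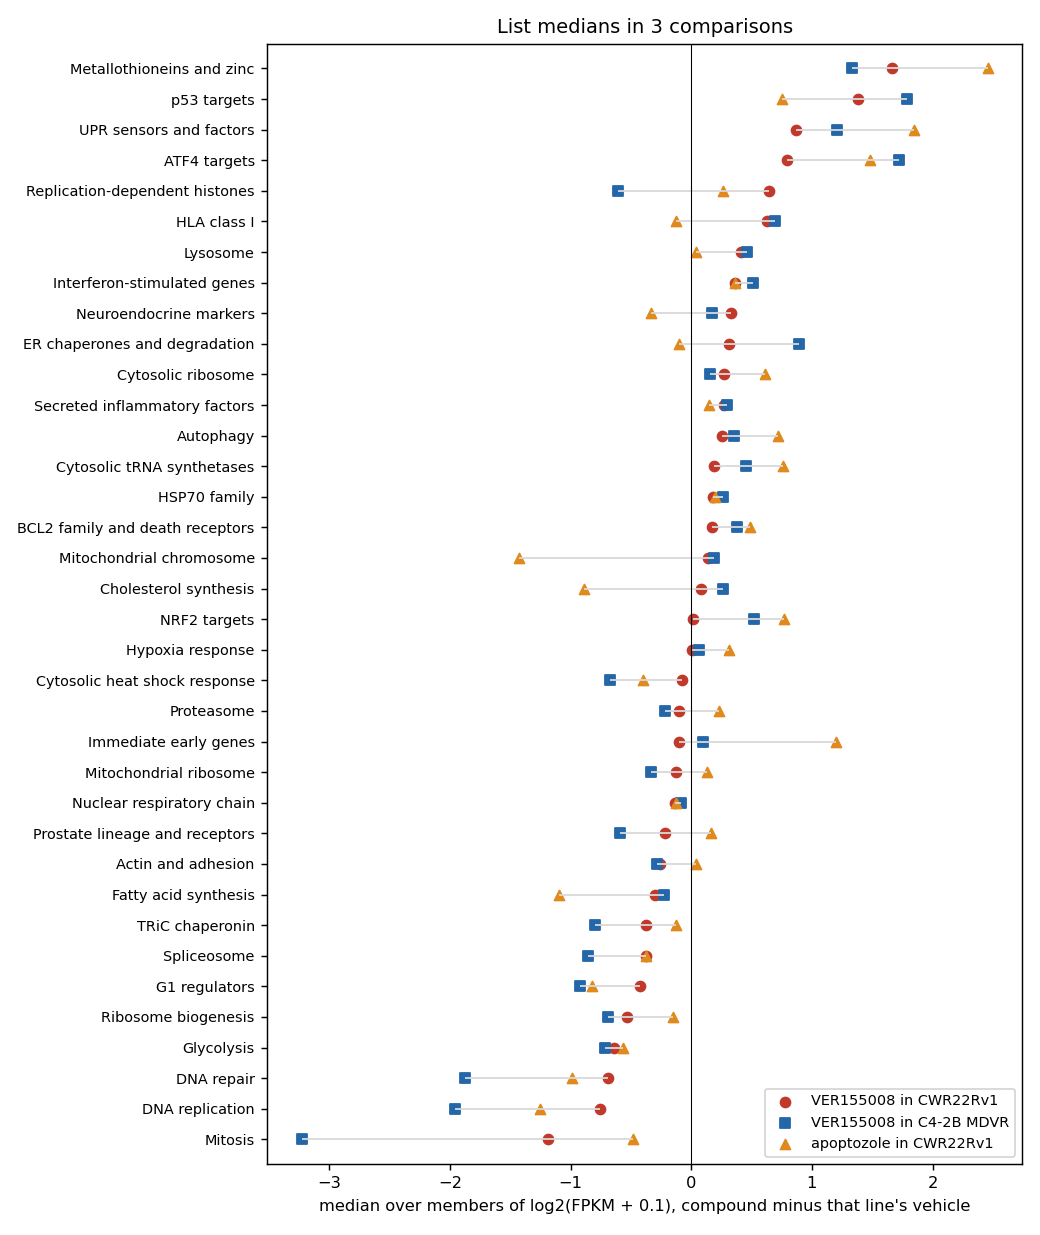
Median difference in log2(FPKM + 0.1) over the members of 36 lists for VER in CWR22Rv1 (circles), VER in C4-2B MDVR (squares, members compared there) and apoptozole in CWR22Rv1 (triangles), each against the vehicle of its line. Mitosis genes have medians of -1.19, -3.23 and -0.48, and mitochondrially encoded genes have 0.14, 0.19 and -1.43.

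Apoptozole, a second inhibitor of HSP70, was given to CWR22Rv1 at the same 10 µM for 48 h and is compared with the same DMSO library, so the values are set side by side and no agreement is drawn from them. The list medians with VER and with APO were -1.19 and -0.48 for mitosis, 1.38 and 0.75 for p53 targets, and 0.79 and 1.48 for ATF4 targets. For cholesterol synthesis they were 0.08 and -0.88, and for the 13 mitochondrially encoded genes 0.14 and -1.43. Values of 4 genes follow. KLK3 stood at 30.2 FPKM with DMSO, 22.7 FPKM with VER and 2.33 FPKM with APO. CDC20 stood at 102, 25.8 and 115 FPKM in that order. DDIT3 stood at 49.3, 125 and 753 FPKM, and HSPA1B at 39.2, 56.6 and 12.5 FPKM. No difference between the compounds was tested.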

How the data were processed

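RNA of 6 cultures, 1 library per condition, was sequenced, and 2 libraries were compared here (CWR22Rv1 with DMSO or VER). The labels describe poly(A) selection, a strand-marking kit and paired 150 bp reads, whereas the study's methods name another kit. FPKM values were deposited by the authors, made per their processing notes with HISAT, Cufflinks and Cuffnorm on GRCh38 (versions, read totals and the strand setting of counting are not given in the sources used here).

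Identifiers were matched to GENCODE 29 symbols (57047 of 60658). Genes that passed 1 FPKM with DMSO or with VER were compared as log2(FPKM + 0.1), VER minus DMSO, and counted past 1.5-fold. With 1 library a side there was no test, p-value or interval. Promoter letters were searched in RefSeq sequences of GRCh38.p14, in the 250 bases before the start.

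The members, the 37 gene lists and the naming rule were chosen with earlier results of these data known, and 5 lists and the alternative of protein-coding genes were added after the values were seen. The rule names the 10 largest differences each way over all genes, the 20 largest above 10 FPKM, the 10 largest gains and losses in FPKM, up to 8 members of each list, members past 1.5-fold against their list's median, the HSP70 family, STUB1, genes the study measured, and the 10 largest gaps each way between the lines. Other list members named, markers, overlapping genes, and EDA2R, S100P, SMOC1, CYP1A1, AGR2 and CAPN5 were chosen after their values were seen. Of the lists 36 are described, and 1 list and some single genes are not reported here. Alternatives changed the pseudocount (0.01 or 1), the filter, the scaling and the threshold. The scripts were tested on simulated data and used matplotlib 3.10.9 for the plots and scipy 1.17.1, numpy 2.4.6 and pandas 2.3.3 under Python 3.11.15 for the values.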

Additional observations from a re-analysis of the deposited data

Results flagged for a closer look

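The differences below had opposite signs in CWR22Rv1 and C4-2B MDVR with VER, on the log2(FPKM + 0.1) scale, and the difference between the lines was not tested, since each condition has 1 library. HSPA8, the constitutive HSP70, differed by 0.76 in CWR22Rv1 and -0.89 in C4-2B MDVR, a gap of 1.65. FHIT differed by -2.16 and 7.12, a gap of -9.28. In C4-2B MDVR it had 0.721 FPKM with DMSO and 114 with VER, so the 7.12 starts from a value under 1 FPKM in 1 library. The median of the replication-dependent histone genes was 0.64 and -0.61, a gap of 1.25. Most of these genes were low, and entries that passed the filter only through 1 library had to differ. With no filter the median in CWR22Rv1 was 0.34. The other gaps belonged to short non-coding entries. MIR3648-2 differed by 8.23 and -9.97, a gap of 18.20. It was listed at 0 with DMSO in CWR22Rv1 (29.9 FPKM with VER) and at 0 with VER in C4-2B MDVR (100 FPKM with DMSO). These sizes are therefore set by the added 0.1, and 8.23 became 11.5 with 0.01. RF02164, which lies within PVT1, differed by -10.74 and 2.47, a gap of -13.22. In CWR22Rv1 it had 171 FPKM with DMSO and a value near 0 with VER, so that size too is set by the added 0.1. RF00100, a 7SK-type entry, differed by 1.29 and -5.71, a gap of 7.0. For RMRP the entry compared differed by 2.48 and -3.40, a gap of 5.88, and the sum of its 2 entries by 0.72 and -4.0. In C4-2B MDVR the DMSO library held the high values. There RN7SL1, another short RNA, had 6513 FPKM with DMSO and 380 with VER, RF00100 1667 and 31.8, and this RMRP entry 1252 and 119. In CWR22Rv1 the same entries had 350 and 403, 88.9 and 218, and 24.3 and 135 FPKM. Their gaps rest mostly on that 1 DMSO library, and why it stood high was not tested.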

How the results depend on the processing

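Of the values of named genes recomputed under the alternatives, 2657 stayed on the same side of 1.5-fold, 48 dropped under it, 24 passed it, and none that was called changed sign. The number of genes higher and lower was 4440 and 4049 with no filter, 771 and 846 above 10 FPKM, 4268 and 4619 past 1.2-fold and 895 and 674 past 2-fold, and among protein-coding genes 1386 and 1529. Setting the sums of FPKM equal gave 1860 and 2358, moved the median of all genes from -0.03 to -0.09 and the higher share of called genes from 51.7% to 44.1%, while a median difference of 0 gave 2253 and 1841 (55.0%). The median of the replication-dependent histones was 0.34 with no filter and 0.95 above 10 FPKM. Above 10 FPKM the median was 0.74 for interferon-stimulated genes, 1.45 for aryl hydrocarbon receptor targets and -0.43 for secreted inflammatory factors, which turned its direction as fewer genes were left. The median of the BCL2 family and death receptors went from 0.17 to 0.35 above 10 FPKM, and that of the small nucleolar RNA host genes from -0.04 to 0.09. The medians of NRF2 targets and of the hypoxia response, both at 0.01, became -0.05 and -0.06 with equal sums. No paired analysis was possible because each condition has 1 library, and for the same reason no library could be left out. Depth is unknown, so genes near 1 FPKM are the least certain.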
